A study of Homo sapiens with 54 samples.

Results

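SNORD115 and SNORD116 are 2 families of small nucleolar RNAs, short RNAs with conserved C and D boxes that are kept in the nucleolus. Most C/D box RNAs pair with ribosomal or spliceosomal RNA and guide the methylation of a ribose at the paired site. The copies of both families lie in tandem in introns of the long host transcript SNHG14 on chromosome 15, which is made only from the paternal chromosome, starts upstream of SNURF and SNRPN, and is spliced to release them. They are known above all from neurons. Loss of the paternal SNORD116 cluster is linked to Prader-Willi syndrome, and SNORD115 has a stretch complementary to the mRNA of the serotonin receptor HTR2C.

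The families were measured here in 9 established human cell lines that are not neuronal. A probe set, the group of oligonucleotides on the array that reports a transcript, was taken as a member where its only gene symbol began with SNORD115- or SNORD116-. This gave 40 members, 20 SNORD115 and 20 SNORD116, of 19460 probe sets with 1 symbol and of 33297 in the table. A further 17 probe sets listed several copies of a family and were not members. The reference table lists 48 SNORD115 and 30 SNORD116 copies on chromosome 15. All SNORD116 copies come before the SNORD115 copies there. Gene lengths of members ran from 71 to 82 bases in SNORD115 and from 85 to 104 bases in SNORD116. The copies of a family are related, and their sequences were not compared here. The signal of a copy may include RNA of others, so the copies are uncertain as single genes.

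Each line was sampled with calcitriol, the hormonal form of vitamin D, for 8 h or 36 h, and before it at 0 h with no agent, with 2 arrays for each line and time and 54 arrays in all. The lymphoblastoid lines GM07019, GM07348, GM10854 and GM12878 are B cells immortalised with Epstein-Barr virus. The 5 other lines comprised 2 lines of fibroblasts (Ag09309, Ag09319), HL60 from a promyelocytic leukaemia, K562 from a chronic myeloid leukaemia, and HEP-G2 from a liver carcinoma. No untreated culture at 8 h or 36 h was analysed here, so time in culture and calcitriol cannot be told apart. The sample titles of HEP-G2, Ag09319 and GM12878 have another form than those of the other 6 lines, and 2 of the 3 arrays that stand apart are among them. Titles of this form all end in the same date, and those of the other 6 lines have no date. The labels do not say what this form or its date marks, and for these lines it cannot be told apart from the line. The calcitriol dose, and whether the 2 arrays came from separate cultures, are not given in the sources used here, so the spread behind each p-value is that of these samples or lines and may be technical. In these bulk samples, fewer cells with an RNA and less of it per cell cannot be told apart.

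Values are log2 signals after RMA, and differences between groups are log2 fold changes. Array medians were between 4.98 and 5.31, and replicate arrays correlated with a median r of 0.987. In 3 groups an array stood apart, replicate 2 of Ag09319 at 8 h (r = 0.897), replicate 2 of HEP-G2 at 0 h (r = 0.954) and replicate 1 of K562 at 36 h (r = 0.97), and results that rest on them are given with and without them. The mean over SNORD116 members was 3.56 in replicate 2 and 4.69 in replicate 1 of HEP-G2 at 0 h. On the other HEP-G2 arrays it was 3.73 and 3.85 at 8 h and 4.14 and 4.31 at 36 h. The median of small nucleolar RNAs outside the 2 families was 4.95 in replicate 1, against 4.36 to 4.54 on the other HEP-G2 arrays. By both measures replicate 1 was the highest HEP-G2 array, and it is the 0 h array kept where replicate 2 is left out. Markers of the labelled cell type were above every line of another type in each line: 5 of 5 B cell genes in the lymphoblastoid lines, 6 of 6 fibroblast genes in Ag09309 and Ag09319, 5 of 5 promyelocyte genes in HL60, 4 of 4 erythroid genes in K562 and 6 of 6 hepatocyte genes in HEP-G2. Over 9 lines CYP24A1, the enzyme that breaks down calcitriol and a standard vitamin D target, was 2.79 ± 0.49 (SE) higher at 36 h than at 0 h (limma, adjusted p = 0.00569).

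The members whose mean over all arrays lay above the middle of the array were 5 SNORD116 copies. Mean levels over the 54 arrays were 7.82 for SNORD116-15 (probe set 7981978), 6.84 for SNORD116-14 (7981976), 6.41 for SNORD116-20 (7981988), 5.41 for SNORD116-21 (7981990) and 5.29 for SNORD116-24 (7981996). SNORD116-15 exceeded the array's own median over all probe sets on 48 arrays, SNORD116-14 and SNORD116-20 on 47 each, and SNORD116-21 and SNORD116-24 on 36 each. The lowest SNORD116 means were 1.68 for SNORD116-16, 1.78 for SNORD116-18 and 2.19 for SNORD116-10.

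In SNORD115 the highest means were 4.51 for SNORD115-24, 4.25 for SNORD115-44, 3.81 for SNORD115-25, 3.45 for SNORD115-32 and 3.21 for SNORD115-31. The lowest were 1.36 for SNORD115-4, 1.45 for SNORD115-37 and 1.52 for SNORD115-34. SNORD115-44 was above the array's own median on 9 arrays, SNORD115-24 on 6 and SNORD115-25 on 5, and the other 17 SNORD115 members on 0. Probes differ in their response, and no detection calls were used, so a low level here is not shown to be an absence of RNA and levels of different copies are not set against each other as amounts. The range among the 9 line means was largest for SNORD116-21 (6.27) and smallest for SNORD115-35 (0.17).

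K562 had the lowest levels of SNORD116. SNORD116-14 was at 2.43, 2.75 and 3.04 (lowest, median and highest of 6 arrays) in K562, against 4.88, 7.31 and 9.37 on the 48 arrays of the other 8 lines. SNORD116-15 was at 3.81, 4.06 and 4.66 in K562, against 6.0, 8.22 and 10.21 in the other lines. SNORD116-20 was at 2.94, 3.29 and 3.61 in K562, against 4.42, 6.69 and 8.68 in the other lines. For these 3 copies, and for SNORD116-1 and SNORD116-24, every K562 array was below every other array. The share of all probe sets separated in this way was not computed. SNORD116-21 was at 1.12, 1.88 and 2.42 in K562, against 2.35, 5.8 and 8.31 in the other lines, so the ranges overlapped. The overlap came from arrays that stand apart, those of K562 at 36 h (2.42) and Ag09319 at 8 h (2.35). Without them the highest K562 array was at 2.03 and the lowest array of the other lines at 3.95, with no overlap.

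The mean of K562 minus the mean of the other 8 lines was -4.63 ± 0.16 (SE) for SNORD116-14 (limma, 27 groups, adjusted p = 1.23e-24). It was -4.09 ± 0.14 for SNORD116-15 (adjusted p = 1.81e-24) and -3.5 ± 0.14 for SNORD116-20 (adjusted p = 6.87e-22). SNORD116-21 (-4.07 ± 0.2, adjusted p = 2.78e-19) and SNORD116-24 (-2.89 ± 0.17, adjusted p = 3.22e-17) were lower in K562 as well. In total 18 of 20 SNORD116 members were lower in K562 at an adjusted p under 0.05, against 21.3% of all probe sets lower in this comparison, and 0 were higher, against 28% of all probe sets. The 2 SNORD116 members without a call were SNORD116-10 (-0.06) and SNORD116-16 (-0.15). Of SNORD115 9 of 20 members were lower in K562 and 0 higher, of which SNORD115-44 had the largest difference (-0.71 ± 0.19, adjusted p = 0.00175). The 158 other small nucleolar RNA probe sets ran the other way in K562, with 82 higher, 15 lower and a median difference of 0.32, and the median over all probe sets was 0.04.

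**Figure D1:**
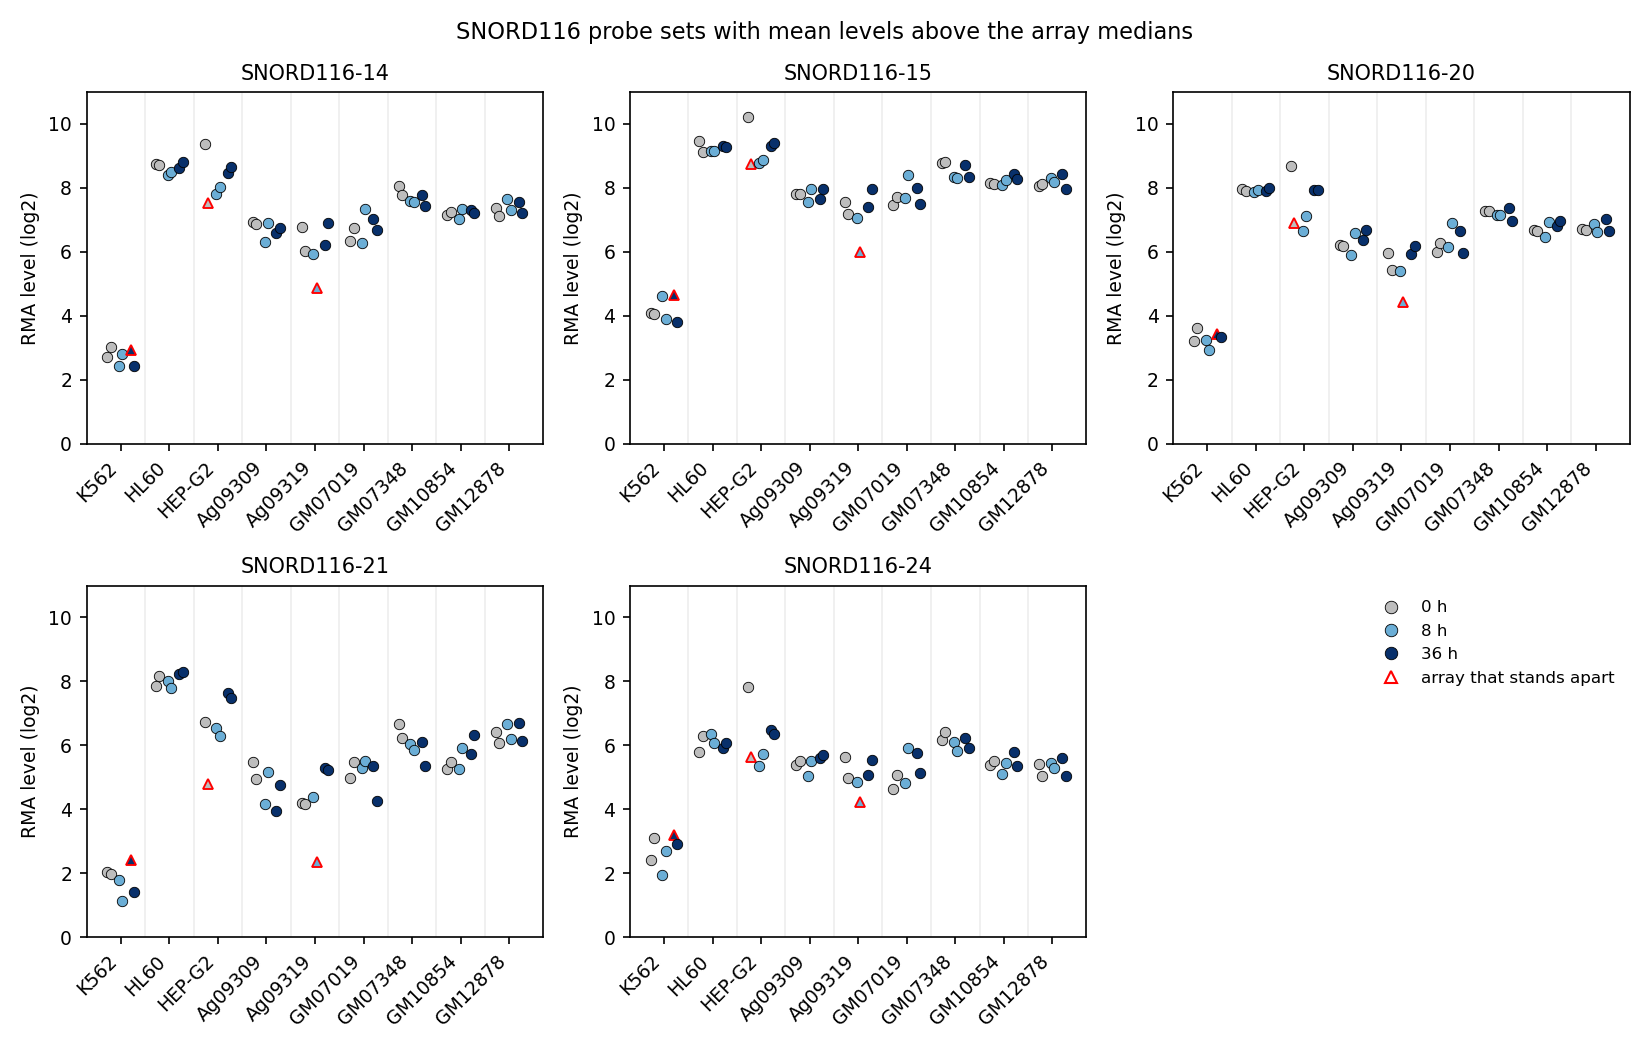
Log2 RMA level (vertical axis) of the 5 SNORD116 members with the highest means on each of the 54 arrays, by cell line (horizontal axis), with colours for 0 h, 8 h and 36 h and red triangles for the 3 arrays that stand apart. The 6 K562 arrays lie below all others for SNORD116-14, SNORD116-15, SNORD116-20 and SNORD116-24, and the 6 HL60 arrays lie above all others for SNORD116-21.

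As the plot of SNORD116 levels by line shows, HL60 and HEP-G2 stood at the other end. SNORD116-14, SNORD116-15, SNORD116-20 and SNORD116-21 had their highest line mean in HL60, although SNORD116-15 was at 9.25 in HL60 and 9.22 in HEP-G2, or 9.32 in HEP-G2 without the array that stands apart. SNORD116-24 was highest in HEP-G2 (6.23). SNORD116-21 was at 7.8, 8.08 and 8.31 in HL60, against 1.12, 5.36 and 7.65 on the 48 arrays of the other 8 lines. The ranges did not overlap, and the share of all probe sets with such a gap was not computed. The mean of SNORD116-21 was 8.06 in HL60 and 5.08 in the other lines, a difference of 2.98 ± 0.2 (limma, adjusted p = 2.57e-15). SNORD116-14 was 2.03 higher in HL60 (adjusted p = 6.3e-14), SNORD116-20 1.71 and SNORD116-15 1.61 higher. Of SNORD116 15 members were higher in HL60 and 0 lower, against 24.4% of all probe sets higher and 29.8% lower, while 0 SNORD115 members differed in either direction. Other small nucleolar RNAs were also mostly higher in HL60, 121 of 158, with a median of 0.62. After centring each array on those RNAs, 9 of the 15 SNORD116 members kept their direction, with SNORD116-21 at 2.27, SNORD116-14 at 1.31 and SNORD116-24 at 0.18 (adjusted p = 0.26). HEP-G2 then took the higher place for SNORD116-14 (2.5), SNORD116-15 (2.42, against 0.89 in HL60), SNORD116-20 (2.12, against 1.0 in HL60) and SNORD116-24 (1.9).

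In HEP-G2 members of both families were higher and most of the other small nucleolar RNAs lower. SNORD116-14 was at 7.54, 8.24 and 9.37 in HEP-G2, and was 1.66 above the mean of the other 8 lines. SNORD115-25 averaged 4.92 in HEP-G2 and 3.68 in the other lines (1.24 ± 0.22, adjusted p = 6.89e-06). Of SNORD116 9 members were higher and 1 lower, and of SNORD115 11 were higher and 0 lower, against 45.9% of all probe sets higher and 30.5% lower. The members' share of higher calls was thus close to that of all probe sets. Of the other small nucleolar RNAs 101 of 158 were lower and 19 higher in HEP-G2, with a median of -0.46. The members' median was 0.24 in SNORD116 and 0.28 in SNORD115, against 0.14 over all probe sets.

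In the fibroblast line Ag09309 10 of 20 SNORD115 copies were lower, a share near that of all probe sets. SNORD115-44 was at 2.37, 2.89 and 3.27 in Ag09309, against 2.86, 4.33 and 6.37 in the other 8 lines (-1.57 ± 0.19, adjusted p = 5.74e-09). SNORD115-25 was at 1.47, 2.29 and 2.74 in Ag09309, against 2.09, 3.95 and 6.08 in the other lines (-1.78 ± 0.22, adjusted p = 8.11e-09). The ranges overlapped narrowly in both. Of SNORD115 10 members were lower and 1 higher in Ag09309, and of SNORD116 2 were lower and 1 higher, against 41.5% of all probe sets lower and 24.3% higher. Centred on the other small nucleolar RNAs, which were mostly lower in this line (112 of 158), 9 of the 11 SNORD115 calls kept their direction.

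Ag09319, the other fibroblast line, had 10 SNORD116 members lower and 1 higher, and 6 SNORD115 members lower and 1 higher, against 30.8% of all probe sets lower and 22.2% higher. These calls turned with scaling. Of the other small nucleolar RNAs 133 of 158 were lower in Ag09319 with a median of -0.78, and after centring on them 3 of the 11 SNORD116 and 1 of the 7 SNORD115 calls kept their direction, with SNORD116-14 at 0.08 in place of -0.81.

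For SNORD116-14 the lymphoblastoid lines lay in the middle of the order, while some members had another order. GM07348 had 11 SNORD116 members higher (15.7% of all probe sets were) and 0 lower, with SNORD116-14 at 0.97 above the other lines. GM12878 had 5 higher (17.6% of all), with SNORD116-21 at 1.08, GM10854 had 3 higher (13.1%), and GM07019 had 0 higher (13%) and 2 lower (20.9%). In SNORD115 the members called higher numbered 4 in GM07019, 2 in GM10854, 1 in GM12878 and 1 in GM07348, and 1 was lower in GM10854. At 0 h alone, the 4 lymphoblastoid lines against the 5 others gave 0 calls among the 40 members, against 3% of all probe sets, and 1 member at an unadjusted p under 0.05. The mean levels of SNORD116-14 put the lines in the order K562, Ag09319, Ag09309, GM07019, GM10854, GM12878, GM07348, HEP-G2 and HL60 (low to high). Neighbours in this order overlapped over their arrays in 7 of 8 steps, the exception being K562. At 0 h alone, levels differed among the 9 lines for 20 members, 12 SNORD116 and 8 SNORD115 (limma's F test), against 72% of all probe sets, and for 26 without the arrays that stand apart.

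**Figure D2:**
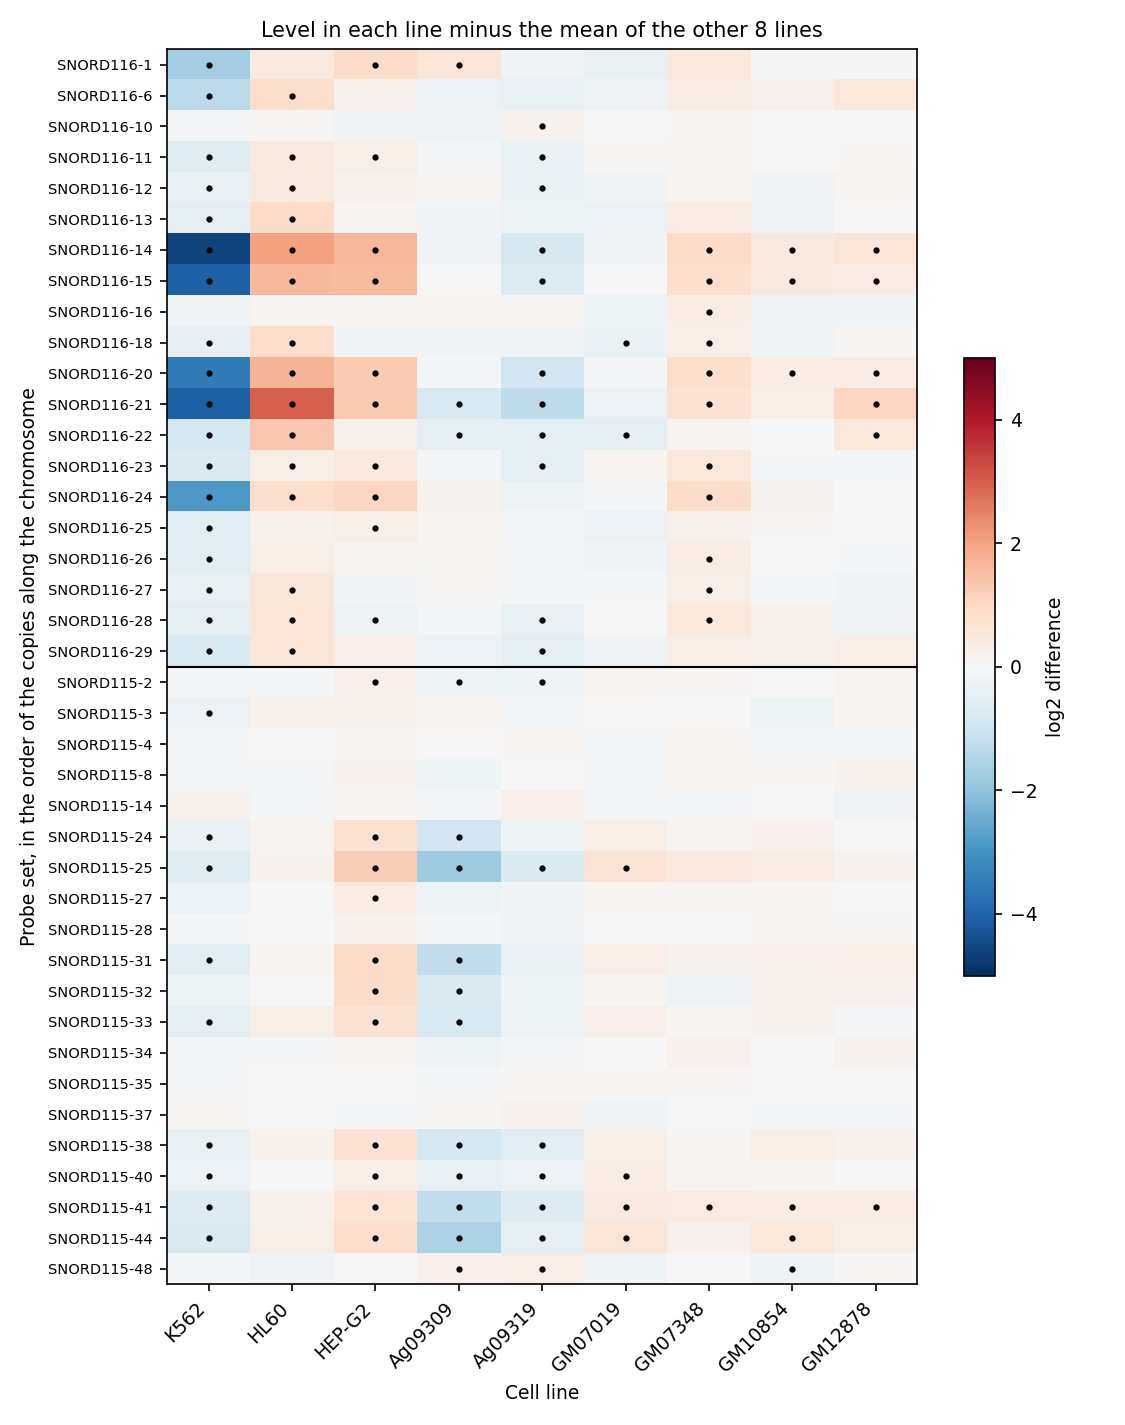
Mean log2 level in each line minus the mean of the other 8 lines (colour) for the 40 members (vertical axis) in 9 lines (horizontal axis), with dots at an adjusted p under 0.05. K562 is lower in 18 of 20 SNORD116 members and HL60 higher in 15, of which 9 keep their direction when arrays are centred on other small nucleolar RNAs, and of the Ag09319 calls 3 of 11 in SNORD116 and 1 of 7 in SNORD115 do.

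Most pairs of members of a family varied together over the lines, more so in SNORD116 than in SNORD115, as the map of line differences shows. Over the 9 line means, pairs of SNORD116 members had a median Pearson r of 0.77 and 187 of 190 pairs were above 0. Pairs of SNORD115 members had a median of 0.58, with 139 of 190 above 0 and a lowest r of -0.81, and pairs between families a median of 0.32. The members closest to SNORD116-15 were SNORD116-14 (r = 1.0), SNORD116-20 (r = 0.99) and SNORD116-24 (r = 0.98), while SNORD116-10 was at 0.08. Those closest to SNORD115-44 were SNORD115-25, SNORD115-31 and SNORD115-41 (r = 0.98 each). These are descriptions over 9 points that share arrays, scaling and, for copies alike in sequence, perhaps probes or targets. In SNORD116 K562 lies far from the other 8.

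The host transcript was followed through a probe set listed for both SNURF and SNRPN, the protein-coding genes at its start. Its adjusted p-values are over all 33297 probe sets. This probe set was at 4.14, 4.28 and 4.95 in K562, and its mean was 4.36 in K562 and 6.45 in the other 8 lines (-2.09 ± 0.09, adjusted p = 9.45e-20). It was 0.92 higher in HEP-G2, 0.47 higher in Ag09309 (adjusted p = 3.61e-05), a line low in SNORD116-14, and 0.4 higher in HL60 than in the other lines. Over 9 line means its r was 0.94 with SNORD116-15, 0.92 with SNORD116-14, 0.95 with SNORD116-24 and 0.33 with SNORD115-44. Without K562, over 8 line means, it was 0.62, 0.56, 0.65 and 0.01 for the same members, so the relation rests largely on K562. The line with the lowest SNORD116 also had the lowest signal of the SNURF and SNRPN probe set. Of 28 listed genes of the locus 11 were measured on a probe set of their own, of which 3 were higher in K562 (NIPA2 0.51, MKRN3 0.34, NDN 0.24) and 1 lower (PWAR6, a noncoding RNA of the locus, -0.43, adjusted p = 0.00172). Proteins of the C/D ribonucleoprotein and its assembly, with 10 of 13 listed genes measured, were higher in K562 in 8 and lower in 0, with a median of 0.56. Of 7 probe sets for the 6 genes of the H/ACA ribonucleoprotein, the other class of small nucleolar particle, 6 were higher. Of all probe sets 28% were higher and 21.3% lower in K562, so the share of locus genes called higher was near that of all probe sets.

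The windows of 250 bases upstream of 2 annotated starts, those of SNURF and of SNHG14, are shown because the families share a host transcript. They are from RefSeq (GRCh38.p14, plus strand), at chr15:24954737-24954986 for SNURF and chr15:24823358-24823607 for SNHG14, with CG dinucleotides in capitals.
SNURF: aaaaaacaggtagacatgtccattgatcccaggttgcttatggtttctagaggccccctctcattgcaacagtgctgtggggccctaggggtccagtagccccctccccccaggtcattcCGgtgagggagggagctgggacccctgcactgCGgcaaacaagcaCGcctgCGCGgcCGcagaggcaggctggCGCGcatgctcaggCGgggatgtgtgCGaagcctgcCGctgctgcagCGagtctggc
SNHG14: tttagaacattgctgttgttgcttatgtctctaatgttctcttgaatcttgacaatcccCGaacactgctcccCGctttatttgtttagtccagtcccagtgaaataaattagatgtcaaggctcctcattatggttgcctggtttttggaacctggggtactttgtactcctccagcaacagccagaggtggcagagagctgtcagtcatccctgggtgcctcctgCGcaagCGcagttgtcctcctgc
The SNURF window holds 12 CG, and 51.5% of 35116 upstream windows in the table hold fewer. The SNHG14 window holds 4, and 29.3% of windows hold fewer. The letters AGGTCA, a core motif of nuclear receptors, occur 1 time in the SNURF window and 0 times in the SNHG14 window when both strands are read, and 12.1% of all windows hold them. A direct repeat of these letters with 3 bases between the copies, a form of the vitamin D receptor's motif, occurs in neither, and 0.0057% of windows hold it. A match is a description of letters, and methylation or binding was not measured in these samples.

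Over time, 7 SNORD115 copies and SNORD116-6 rose between 8 h and 36 h. With each line as a replicate, 8 of 40 members were higher at 36 h than at 8 h and 0 lower at an adjusted p under 0.05, against 0.355% of all probe sets higher and 0.0154% lower. The difference was above 0 in 20 of 20 SNORD115 members, with a median of 0.39, and in 18 of 20 SNORD116 members, with a median of 0.15. Centred on the other small nucleolar RNAs these were 19 and 13 of 20. The median was 0.03 over the 158 other small nucleolar RNAs, of which 0 were called and 25 had an unadjusted p under 0.05 in limma, and 0.0 over all probe sets.

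**Figure D3:**
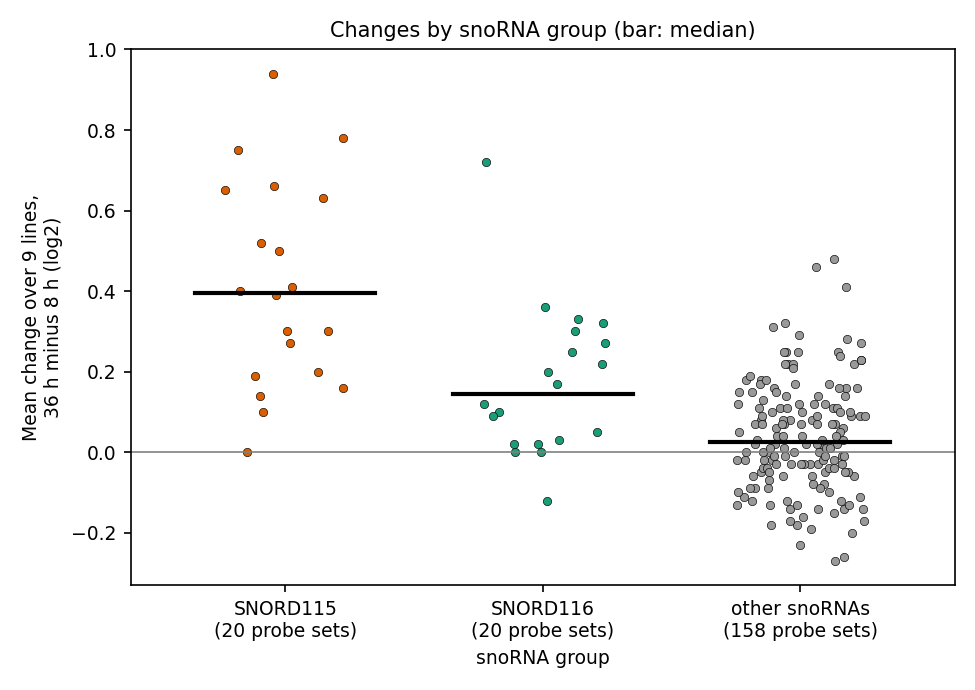
Mean log2 change over 9 lines, 36 h minus 8 h (axis in log2 units), of each probe set of SNORD115 (20), SNORD116 (20) and the other small nucleolar RNAs (158), with a bar at each median. The medians are 0.39, 0.15 and 0.03.

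The largest change among members was that of SNORD115-44 (probe set 7982094). Its line means ran over 3.1, 4.17 and 4.76 at 0 h, over 2.47, 4.25 and 4.58 at 8 h and over 3.01, 5.23 and 5.99 at 36 h (lowest, median and highest of 9 lines). The mean was 4.8 ± 0.95 at 36 h and 3.86 ± 0.74 at 8 h (SD, n = 9 lines), so the groups of lines overlapped while the change within lines was 0.94 ± 0.16 (SE, adjusted p = 0.00441) and above 0 in 9 of 9 lines. The change was 1.55 in HEP-G2, 1.35 in HL60, 1.23 in K562, 1.07 in GM07019, 1.06 in GM12878 and 0.82 in GM10854. It was smallest in Ag09319 (0.63), Ag09309 (0.54) and GM07348 (0.22). In HL60 the arrays were at 3.09 and 4.13 at 0 h, 4.15 and 4.4 at 8 h, and 5.57 and 5.66 at 36 h, so both 36 h arrays were above the other 4. In GM07348 they were at 4.68 and 4.53, 4.28 and 4.24, and 4.83 and 4.13 at the same times and overlapped.

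SNORD115-27 (7982060) was at 1.96, 2.3 and 2.88 at 36 h, against 1.48, 1.87 and 2.07 at 8 h (lowest, median and highest line mean). It was 0.52 ± 0.09 higher at 36 h, in 9 of 9 lines (adjusted p = 0.00231). SNORD115-33 (7982072) was at 2.26, 2.94 and 3.75 at 36 h, against 1.79, 2.5 and 3.32 at 8 h, a change of 0.65 ± 0.12 in 9 of 9 lines (adjusted p = 0.00529). Both were low-level copies whose ranges of lines overlapped between the times. The other called SNORD115 copies were SNORD115-41 (7982088, 0.75 ± 0.15), SNORD115-38 (7982082, 0.63 ± 0.12), SNORD115-40 (7982086, 0.5 ± 0.1) and SNORD115-28 (7982062, 0.39 ± 0.08), with adjusted p of 0.0145, 0.0128, 0.0145 and 0.0312. SNORD115-38 was higher at 36 h in 9 of 9 lines and the other 3 in 8 of 9. SNORD115-41, SNORD115-38, SNORD115-40 and SNORD115-28 were low-level copies as well, with means of 2.62, 2.37, 1.62 and 1.76 over the 54 arrays. SNORD115-25 (0.78 ± 0.19, adjusted p = 0.0655), SNORD115-31 (0.66, adjusted p = 0.0759) and SNORD115-32 (0.41, adjusted p = 0.0601) did not pass. Of the 4 lowest-level or least variable SNORD115 copies named above, the values were 0.27 for SNORD115-35, 0.2 for SNORD115-34, 0.14 for SNORD115-4 and 0.1 for SNORD115-37, and none of these 4 passed.

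SNORD116-6 (7981960) was the called SNORD116 copy. Its line means were at 3.17, 4.61 and 5.44 at 36 h, against 2.5, 4.06 and 4.91 at 8 h, with an overlap. It was 0.72 ± 0.14 higher at 36 h in 9 of 9 lines (adjusted p = 0.0116), by 0.16 in GM07348 to 1.02 in GM07019. In 2 of these lines the rise rested on an array that stands apart. K562 was at 4.12 (the array apart) and 2.23 at 36 h, against 2.67 and 2.34 at 8 h. Ag09319 was at 4.29 and 4.19 at 36 h, against 4.25 and 2.25 (the array apart) at 8 h. Without these arrays K562 was lower at 36 h, and the Ag09319 arrays at 36 h lay on either side of that at 8 h. The copies with high levels did not pass. SNORD116-21 was at 0.36 ± 0.2 (adjusted p = 0.322), SNORD116-24 at 0.33 ± 0.12 (adjusted p = 0.153), SNORD116-20 at 0.32 ± 0.11 (adjusted p = 0.146), SNORD116-14 at 0.25 ± 0.1 (adjusted p = 0.198). SNORD116-15 showed 0.2 ± 0.11 (adjusted p = 0.289). At the low end SNORD116-28 was at -0.12 ± 0.08 (adjusted p = 0.428).

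**Figure D4:**
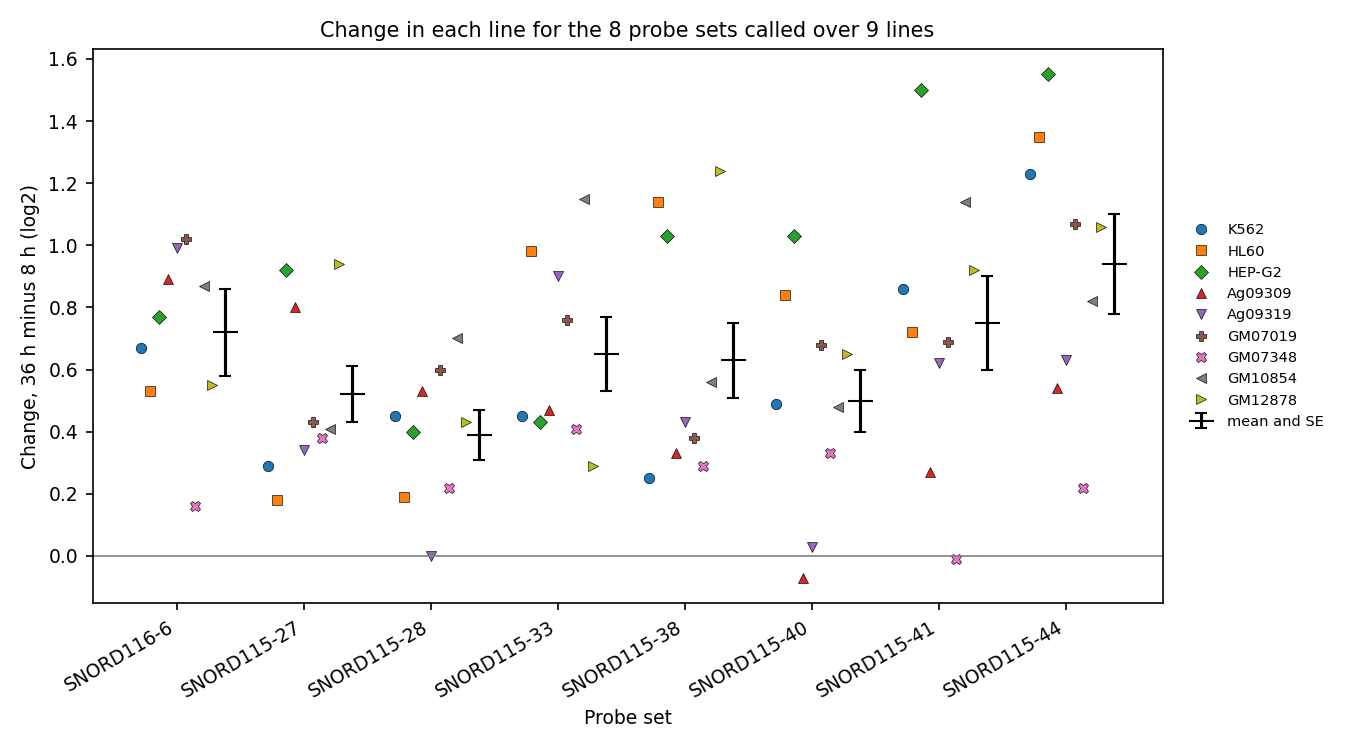
Log2 change, 36 h minus 8 h, of the 8 called members in each of the 9 lines (points), with the mean over lines and its standard error. The means run from 0.39 (SNORD115-28) to 0.94 (SNORD115-44).

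Without the 3 arrays that stand apart, 4 of the 8 calls held, SNORD115-27 (adjusted p = 0.0271), SNORD115-28 (0.04), SNORD115-33 (0.0275) and SNORD115-44 (0.0299). SNORD116-6 was then at 0.5 (adjusted p = 0.378), and the medians were 0.35 in SNORD115 and 0.1 in SNORD116. The counts of lines given for the 8 calls include these 3 arrays. The 8 calls were also 4 without GM12878, 4 without HEP-G2 and 5 without K562.

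Between 0 h and 36 h the direction was the same, with fewer calls. Of 40 members 3 were higher at 36 h than at 0 h and 0 lower, against 0.447% of all probe sets higher and 0.0206% lower. They were SNORD115-33 (0.54 ± 0.12, adjusted p = 0.0312, 9 of 9 lines), SNORD115-41 (0.67 ± 0.15, adjusted p = 0.0355, 7 of 9 lines) and SNORD115-44 (0.72 ± 0.16, adjusted p = 0.0456, 6 of 9 lines). The difference of SNORD115-44 was below 0 in Ag09309, Ag09319 and GM07348. The median was 0.31 in SNORD115, with 20 of 20 members above 0, 0.11 in SNORD116 and -0.06 over the other small nucleolar RNAs. The largest SNORD116 differences were 0.53 ± 0.14 for SNORD116-6 (adjusted p = 0.0905), 0.24 for SNORD116-25 and 0.21 for SNORD116-21, and the lowest were -0.05 for SNORD116-11 and -0.04 for SNORD116-28. Without the 3 arrays that stand apart none of the 3 passed, with SNORD115-33 at 0.38 (adjusted p = 0.186), 0.57 for SNORD115-41 (adjusted p = 0.117) and 0.53 for SNORD115-44 (adjusted p = 0.205). The counts of lines given for them include these arrays. The 3 calls also fell to 0 without GM10854, without GM12878, without HEP-G2, without HL60 or without K562, and moved to 8 without Ag09319, to 6 without GM07348 and to 1 without GM07019.

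At 8 h against 0 h, 0 of 40 members passed, as did 0% of all probe sets, while 2 members and 542 of all probe sets had an unadjusted p under 0.05 in limma. The medians were -0.06 in SNORD115, -0.02 in SNORD116 and -0.08 over the other small nucleolar RNAs. The comparisons share arrays, those of 36 h against 8 h and against 0 h the 36 h arrays, so they are not independent.

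**Figure D5:**
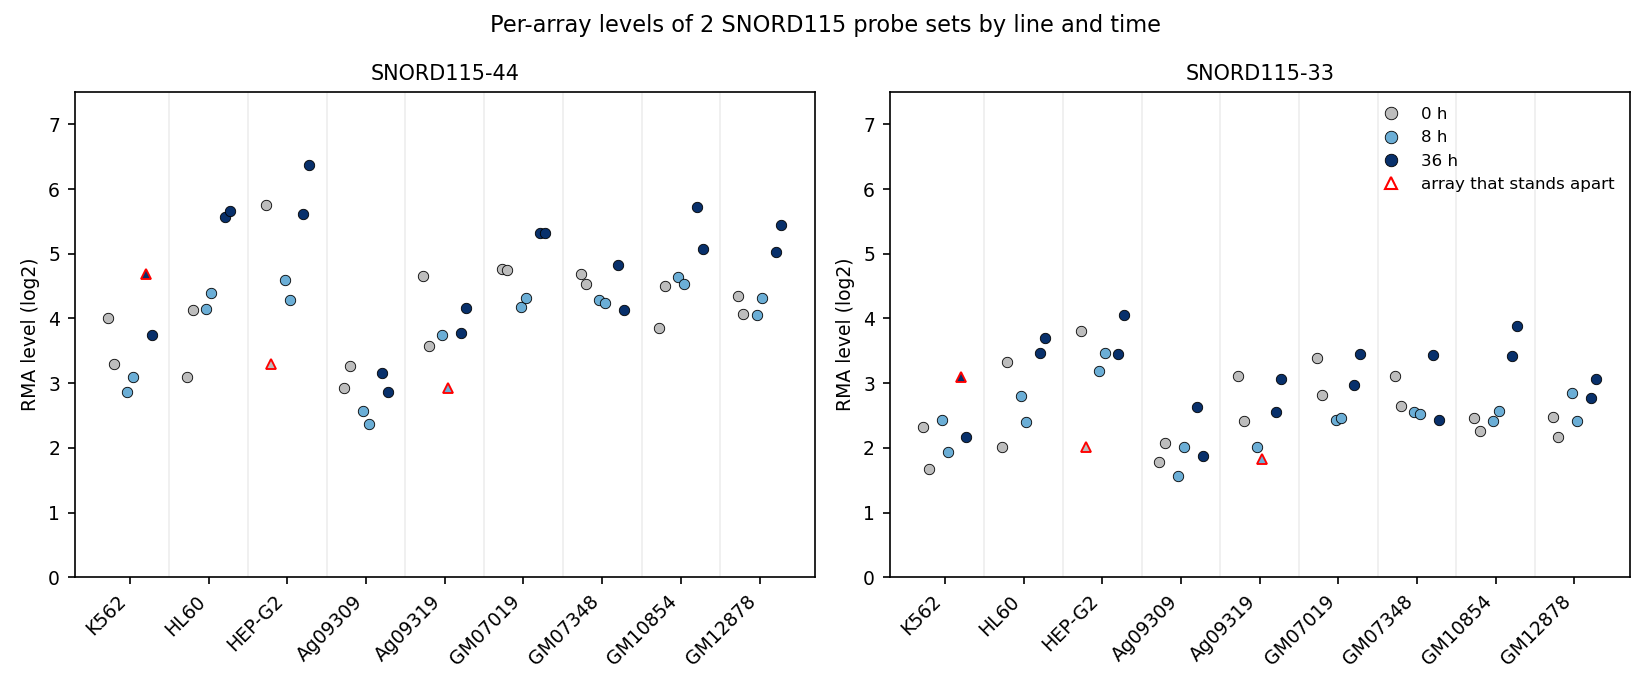
Log2 RMA level (vertical axis) of SNORD115-44 and SNORD115-33 on each array, by cell line and time. In HL60 the 36 h arrays of SNORD115-44 are at 5.57 and 5.66 and all earlier arrays at or below 4.4, while in GM07348 the times overlap.

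In the 4 lymphoblastoid lines, SNORD115-41 (0.79 ± 0.15, adjusted p = 0.0114, 4 of 4 lines) and SNORD115-44 (0.67 ± 0.16, adjusted p = 0.0483, 3 of 4 lines) were higher at 36 h than at 0 h, against 1.06% of all probe sets higher. Against 8 h they were SNORD115-40 (0.53 ± 0.1, adjusted p = 0.0343) and SNORD115-44 (0.79 ± 0.16, adjusted p = 0.0432), each in 4 of 4 lines, against 0.277%. These counts of 2 moved to 12 and 7 without GM07348, and to 0 in both comparisons without GM07019, without GM10854 or without GM12878. At 8 h against 0 h 0 members passed, against 0.0257%.

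In the 5 other lines SNORD115-32 (0.59 ± 0.09, adjusted p = 0.0104) and SNORD116-6 (0.77 ± 0.14, adjusted p = 0.0318) were higher at 36 h than at 8 h, each in 5 of 5 lines, against 0.206% of all probe sets higher. Without the arrays that stand apart they were at 0.5 (adjusted p = 0.175) and 0.38 (adjusted p = 0.684). The 5 of 5 lines include these arrays, and without its own such array K562 was lower at 36 h for SNORD116-6. The count of 2 fell to 1 without Ag09309 and to 0 without Ag09319, without HEP-G2 or without K562. At 36 h against 0 h 0 members passed, against 0.2%, and 1 did without Ag09319. At 8 h against 0 h 0 passed, against 0%.

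The changes of the lymphoblastoid lines minus those of the other lines gave 0 calls among members, against 0.0103% of all probe sets at 36 h against 0 h and 0.00514% at 36 h against 8 h. Between 8 h and 36 h 5 members had an unadjusted p under 0.05, all SNORD116, of which SNORD116-21 had the largest difference (-0.8 ± 0.33, adjusted p = 0.932). A difference between the kinds of line was therefore not shown.

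Single lines gave 6 calls at 36 h against 0 h, all higher at 36 h. Without the arrays that stand apart 12 calls were higher, all in lines other than HEP-G2, and the share of all probe sets in that setting is not given here. In HEP-G2, where replicate 1 was then the only 0 h array, members were lower at 36 h (SNORD116-11 at -0.94, SNORD116-23 at -1.12 and SNORD116-24 at -1.39). In HL60 SNORD115-44 was at 5.57 and 5.66 at 36 h, against 3.09 and 4.13 at 0 h (2.01 ± 0.44, adjusted p = 0.011). SNORD115-41 was at 3.39 and 3.65 at 36 h, against 2.02 and 2.21 at 0 h (1.41 ± 0.33, adjusted p = 0.024), and SNORD115-40 at 2.04 and 2.39, against 1.23 and 1.39 (0.91 ± 0.23, adjusted p = 0.0431). The share of all probe sets higher at 36 h in HL60 was 0.714%. In each fibroblast line a single SNORD116 copy was called, a share of the members near that of all probe sets. SNORD116-25 in Ag09309 was at 3.55 and 3.62 at 36 h, against 2.38 and 2.32 at 0 h (1.23 ± 0.29, adjusted p = 0.00683, with 2.65% of all probe sets higher). SNORD116-10 in Ag09319 was at 2.57 and 3.0 at 36 h, against 2.05 and 1.77 at 0 h (0.87 ± 0.19, adjusted p = 0.00212, with 1.78% higher), a call lost in a fit of the line alone (adjusted p = 0.599) and after centring on the other small nucleolar RNAs (0.67, adjusted p = 0.109). SNORD115-40 in HL60 also lost its call after that centring (adjusted p = 0.0873). Leaving out 1 array ended each of the 6 calls in at least 1 case. In all these, both later arrays were above both earlier ones. SNORD116-21 in HEP-G2 was at 7.65 and 7.48 at 36 h, against 6.74 and 4.8 at 0 h (1.79 ± 0.47, adjusted p = 0.0356, with 1.05% higher), and was at 0.82 (adjusted p = 0.355) without the array at 4.8, which stands apart. In K562, GM07019, GM07348, GM10854 and GM12878 0 members passed, against 0.0411%, 0.0514%, 0.118%, 0.0668% and 0.0514% of all probe sets.

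At 36 h against 8 h, 6 calls were made in single lines. In HEP-G2 (0.761% of all probe sets higher) SNORD115-41 was at 3.83 and 4.33 at 36 h, against 3.14 and 2.01 at 8 h (1.5 ± 0.33, adjusted p = 0.00868), and SNORD115-40 at 2.2 and 2.54, against 1.49 and 1.19 (1.03 ± 0.23, adjusted p = 0.00919). In a fit of HEP-G2 alone neither passed (adjusted p = 0.286 for SNORD115-41 and 0.159 for SNORD115-40). The other 4 were in Ag09319 (10.8% higher) and rested on its 8 h array that stands apart. SNORD116-21 was at 5.3 and 5.22 at 36 h, against 4.37 and 2.35 at 8 h (1.9 ± 0.47, adjusted p = 0.0055), and at 0.89 (adjusted p = 0.228) without that array. SNORD116-14, SNORD116-15 and SNORD116-20 were at 1.14, 1.15 and 1.14 with it and at 0.61, 0.61 and 0.64 without it, where none passed. In the other 7 lines 0 members passed, against at most 0.38% of all probe sets (Ag09309). With that array included, the SNURF and SNRPN probe set was higher in Ag09319 at 36 h than at 8 h (0.89 ± 0.2, limma, adjusted p = 0.00487). In the same fit 6.72% of all 33297 probe sets were higher. Its value without the array is not given here.

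At 8 h against 0 h 0 members passed in any of the 9 lines, against at most 1.53% of all probe sets (Ag09309). Without the arrays that stand apart, SNORD116-1, SNORD116-13, SNORD116-14, SNORD116-15, SNORD116-20, SNORD116-23 and SNORD116-24 were lower at 8 h than at 0 h in HEP-G2. Their differences of -2.28 to -1.36 rest on replicate 1, then the only array at 0 h, whose mean over SNORD116 members was above both 8 h arrays. The share of all probe sets in that setting is not given here.

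Genes around the families gave no call over time in the 9 lines. The SNURF and SNRPN probe set was at 0.16 ± 0.1 at 36 h against 8 h over 9 lines (adjusted p = 0.38) and at 0.17 at 36 h against 0 h (adjusted p = 0.456). Of the 11 genes of the locus 0 passed in any of the 3 comparisons over 9 lines, and likewise 0 of the C/D and 0 of the H/ACA ribonucleoprotein genes. HTR2C, whose mRNA SNORD115 can pair with, was at -0.22 ± 0.08 at 36 h against 8 h (adjusted p = 0.14). SNORD113 and SNORD114, tandem imprinted families of another chromosome, gave 0 calls of 6 over 9 lines, while 6 of 6 were higher in Ag09309 and 5 in Ag09319 than in the other lines. Of all probe sets 24.3% were higher in Ag09309 and 22.2% in Ag09319. The 6 neuron markers had a median of 4.15 to 4.8 in the 9 lines, below the array medians. The highest of them in a line ran from 5.26 in GM07348 to 6.83 in Ag09309, so not every marker was below.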

How the data were processed

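Expression was measured in 54 arrays of 9 cell lines at 0 h, 8 h and 36 h. Biotinylated cDNA was made from total RNA with the Affymetrix WT protocol, per the labels' protocols. The authors made the deposited log2 values with Affymetrix Expression Console 1.0 and RMA, per the submitters' processing notes, with no statement on whether RMA was run on all of them at once. RMA scales arrays to a shared distribution, so levels are relative to the other probe sets of an array.

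Groups came from each sample's cell line and time. For GM10854 the titles give a different line name from the cell line field, which was followed. Of 33297 probe sets 21214 were in the probe table, 19460 with 1 symbol and 1754 with several, and 12083 were not in it. Gene IDs matched the reference table for 19429, and 0 symbols were updated. No pair of arrays was identical (0), and 0 columns of per-sample values were left unused.

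Tests used limma 3.58.1 in R 4.3.3, two-sided, with Benjamini-Hochberg adjustment over 19460 probe sets and a threshold of 0.05. For the SNURF and SNRPN probe set and those that list several copies, fit and adjustment were over all 33297 probe sets. For 9, 4 or 5 lines, replicate arrays were averaged first, so that lines served as replicates in a model of time plus line (16 residual df with 9 lines). Single lines and levels came from 1 fit of 27 groups to 54 arrays (27 residual and 8.89 prior df). No filter on low values was applied. The fits were tested on simulated data. Arrays have no read depth, and precision is limited by how many there are. Alternatives were quantile normalization, centring on array medians or on the other small nucleolar RNAs, a filter on low values, an intensity trend, 1 probe set per symbol, all probe sets, a block on the replicate number, either title form, a fit of 1 line alone, and leaving out lines, arrays or the 3 arrays that stand apart.

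The members and the lists (genes of the locus, C/D and H/ACA ribonucleoproteins, HTR2C, cell type markers) were chosen with earlier results of these data known. Named members were those called in a comparison (at most 10 in each direction), those with the 5 highest and 3 lowest means of each family, those with the 3 largest rises and falls of each family over 9 lines, and those with the largest and smallest range among lines. Promoter windows came from the RefSeq table, and motifs were searched on both strands. Figures used Python 3.11.15 and matplotlib 3.10.9.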

Additional observations from a re-analysis of the deposited data

Results flagged for a closer look

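In K562 the mean level of 4 SNORD116 members lay far from the other 8 lines, with a gap to the nearest line above 0.493 of the whole range among the 9 line means, which is Dixon's critical value for 9 values. SNORD116-14 was at 2.72 in K562 and at 6.12 in the nearest line, a gap of 0.574 of the range. SNORD116-15 was at 4.19 in K562 and at 7.2 in the nearest line (0.595). SNORD116-24 was at 2.72 in K562 and at 5.05 in the nearest line (0.665). SNORD116-1 was at 2.08 in K562 and at 3.26 in the nearest line (0.507). Levels of 40 members and 16 changes were examined this way. Chance alone gives such a gap in about 1 in 20 sets, and the 4 members are copies of the same family measured on the same arrays.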

How the results depend on the processing

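No called change changed direction under the alternatives run, while some level differences did under centring on the other small nucleolar RNAs, as given beside them. Over 9 lines, 8 members passed at 36 h against 8 h. This count was 4 with quantile normalization, 5 with arrays centred on the other small nucleolar RNAs, 4 without the 3 arrays that stand apart, 0 with a filter on low values, which leaves 3 members, and 0 in either title form alone (GM12878, Ag09319 and HEP-G2, or the other 6 lines). Leaving out each line gave 4 to 10. At 36 h against 0 h the count of 3 was 0 with quantile normalization, 5 with that centring, 0 without the 3 arrays, 0 with the filter, 1 with 1 probe set per symbol, 0 over all probe sets, and 0 in either title form. Leaving out each line gave 0 to 8.

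In the 4 lymphoblastoid lines the count of 2 at 36 h against 0 h was 1 with quantile normalization, 1 with centring on the other small nucleolar RNAs, 0 with the filter and 0 over all probe sets, and 0 to 12 without a line. At 36 h against 8 h the count of 2 was 0 in these 4 settings, 4 with an intensity trend, and 0 to 7 without a line. In the 5 other lines the count of 2 at 36 h against 8 h was 1 with quantile normalization, 1 with median centring, 1 over all probe sets, and 0 with centring on the other small nucleolar RNAs, without the 3 arrays, with the filter or with 1 probe set per symbol. It was 0 to 2 without a line, and at 36 h against 0 h the count of 0 was 0 to 1.

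In single lines the 6 calls at 36 h against 0 h were 15 without the 3 arrays, 0 with the filter, 25 in fits of 1 line alone, and 3 to 14 without an array (14 without HEP-G2 0 h replicate 1, 3 without HL60 0 h replicate 1 or either HL60 36 h array). The 6 calls at 36 h against 8 h were 11 without the 3 arrays, 3 with the filter, 11 in fits of 1 line alone, and 2 to 11 without an array (2 without Ag09319 8 h replicate 2, 3 without Ag09319 36 h replicate 2, 11 without K562 36 h replicate 2). The 0 calls at 8 h against 0 h were 7 without the 3 arrays and 0 to 9 without an array (9 without Ag09319 8 h replicate 1, 4 without HEP-G2 0 h replicate 2). The 125 level differences of a line were 231 with centring on the other small nucleolar RNAs and 21 with the filter, and the 20 at 0 h were 40 and 3. Causes were not tested, beyond the filter, which leaves fewer members. These counts are given without the share of all probe sets called in the same setting. SNORD115-27, SNORD115-33 and SNORD115-44 kept their call at 36 h against 8 h in 17 of 19 alternatives each, SNORD116-6 in 16, SNORD115-38 and SNORD115-41 in 12 each, SNORD115-40 in 11 and SNORD115-28 in 8. Against 0 h SNORD115-33 kept it in 9 of 19, SNORD115-41 in 7 and SNORD115-44 in 6.

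The replicate number was not taken to pair the samples, since only 3 of 9 lines (K562, GM07348 and GM12878) had every pair of times above an r of 0.1. Deviations of same-numbered arrays correlated above 0.1 in 14 of 27 pairs of times, with r of -0.414 to 0.585. With the replicate number as a block, calls over 9 lines numbered 9 at 36 h against 0 h and 13 at 36 h against 8 h, and in the lymphoblastoid lines 6 at 36 h against 8 h. Precision is limited by 2 arrays for each line and time, and most members' signals lay below the array medians.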

Other observations

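Probe sets that list several copies of a family, which were not members, were fitted with all probe sets of the table. Of 8 such SNORD115 probe sets, with 6 distinct value patterns, 5 were higher at 36 h than at 8 h over 9 lines, with a median of 0.64, against 0.472% of all 33297 probe sets higher in that fit. Of 9 SNORD116 probe sets of this kind, also with 6 distinct value patterns, 0 passed, with a median of 0.36. At 36 h against 0 h 0 of either passed, with medians of 0.52 in SNORD115 and 0.29 in SNORD116, against 0.204% of all probe sets higher. In K562 9 of the 9 SNORD116 probe sets were lower than in the other 8 lines, with differences of -4.35 to -0.78, and 5 of the 8 SNORD115 probe sets were lower, against 16.5% of all probe sets. In HL60 9 of 9 SNORD116 and 0 of 8 SNORD115 probe sets were higher, against 26% of all probe sets.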
